A study of Homo sapiens with 6 samples.

Results

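The tumour necrosis factor (TNF) superfamily was examined in 6 RNA-seq libraries from Hey and SKOV3, 2 cell lines of human ovarian cancer. The members are the 39 genes that the table lists under the symbols TNF, LTA, LTB, FASLG, FAS, CD40, LTBR, TNFSF followed by a number or TNFRSF followed by a number, out of 59008 gene symbols, of which 31474 were above 0 in at least 1 library. They are 15 ligands and 24 receptors, and they were chosen by name, not by their values. Each line gave 1 library of untreated parental cells, 1 of polyploid giant cancer cells (PGCCs) and 1 of daughter cells. PGCCs were obtained with 500 nM paclitaxel, a microtubule-stabilizing drug that blocks mitosis, given for 16 h and followed by recovery in drug-free medium for 3 days. The title of the SKOV3 PGCC library gives day 7 instead. The daughter cells had grown out from PGCCs 30 days after the same treatment, and the titles name 1 clone for each line. The labels name no genetic change in any group, and the parental cells received no drug. With 1 library per condition the values carry no replicate error. A comparison is repeated only in the other line.

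Ligands of the TNF superfamily assemble as trimers, mostly on the cell surface, from which some are shed as soluble cytokines. They bind receptors that fall into 3 kinds. Death-domain receptors recruit adaptors such as TRADD and FADD and can activate caspase-8 or NF-κB. TRAF-binding receptors recruit TRAF proteins and activate NF-κB and MAP kinases, either by the classical route or by the alternative route through the kinase NIK (MAP3K14). Decoy and soluble receptors bind a ligand without passing on a signal. Many members are used mainly by lymphocytes, while others, such as TNFRSF1A, FAS and the TRAIL receptors, are found on most epithelial cells and tumour cells.

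Levels are given as transcripts per 1000000 (TPM), which corrects for transcript length, so genes can be compared with each other. TPM is a share of each library. It holds no read depth, and in RNA from a whole culture, fewer cells of a type and less RNA per cell cannot be told apart. Of the 39 members, 25 reached 1 TPM in at least 1 library, 15 reached 10 TPM, and 12 stayed at 1 TPM or above in all 6 libraries. The latter comprised 10 receptors and only 2 ligands, TNF and TNFSF9. By kind, 9 of 15 ligands, 6 of 6 death-domain receptors, 7 of 14 TRAF-binding receptors and 3 of 4 decoy or soluble receptors reached 1 TPM. The receptors together made up 811, 943 and 904 TPM in Hey parental cells, PGCCs and daughter cells, and 343, 541 and 417 TPM in those of SKOV3. The sum in SKOV3 PGCCs is not corrected for a trend with transcript GC content that is described below. The ligands together made up 14.8, 100 and 15.5 TPM in Hey, and 67.7, 72.7 and 88.9 TPM in SKOV3. Among the members, receptor transcripts thus outnumbered ligand transcripts in every library. The ligand share of the members' TPM was 9.63% in Hey PGCCs against 1.79% in Hey parental cells. These sums leave out family genes with other symbols. One is the ligand CD70, at 19.2, 20.6 and 35.3 TPM in Hey and at 55.4, 121 and 28.1 TPM in SKOV3.

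**Figure D1:**
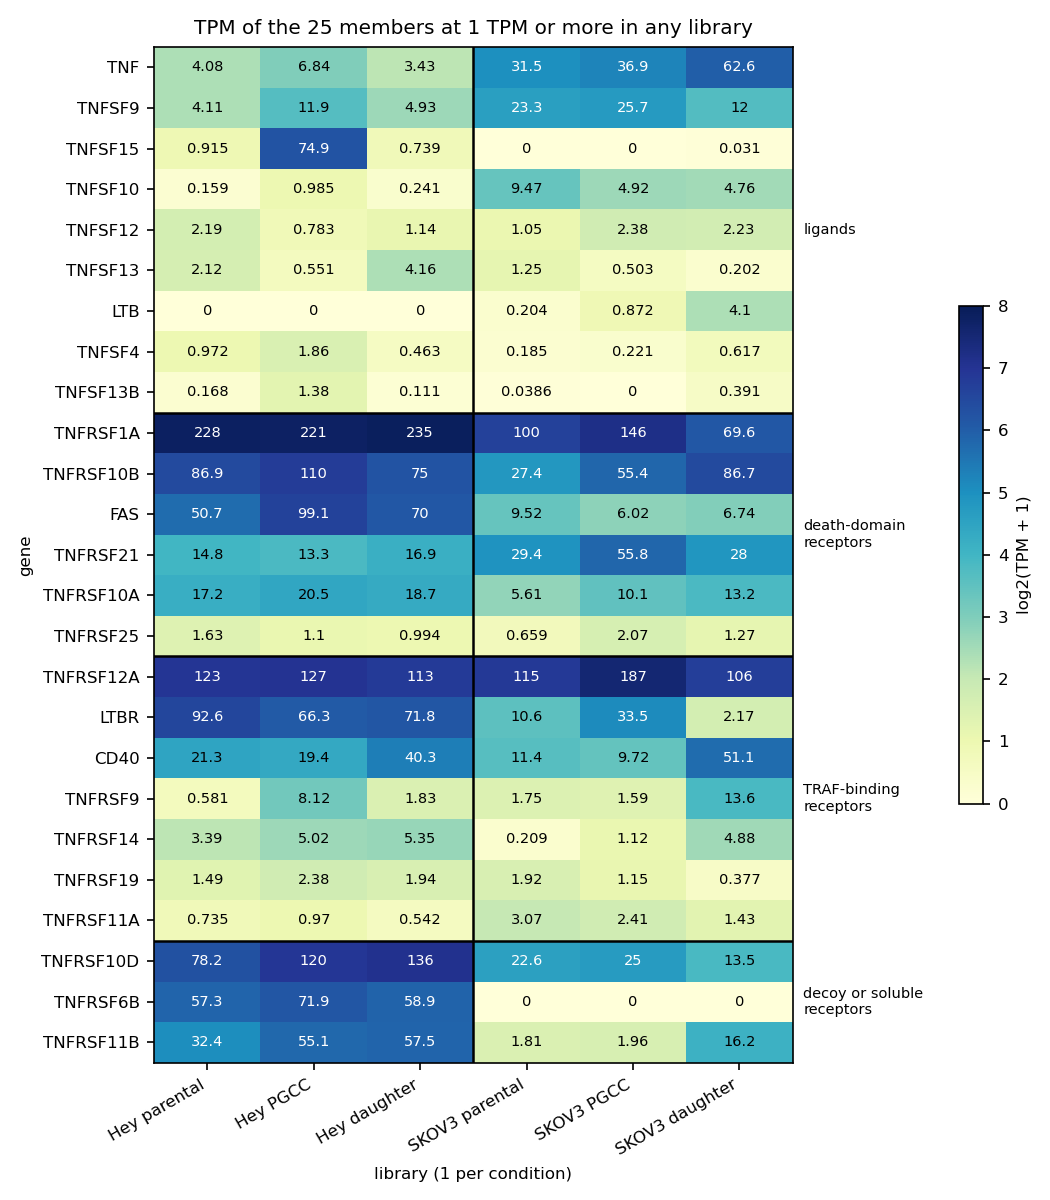
Heat map of the 25 members that reached 1 TPM, with genes in rows grouped by kind and the 6 libraries in columns. Colour is log2(TPM + 1) and the printed numbers are TPM. TNFRSF1A and TNFRSF12A were among the highest rows in all libraries, TNFSF15 was at 74.9 TPM in Hey PGCCs and at 0.915 TPM or less elsewhere, and TNFRSF6B was listed at 0 in the 3 SKOV3 libraries.

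The lines were checked by their marker genes. ERBB2, which is amplified in SKOV3, ranged from 1127 to 1778 TPM in SKOV3 and from 8.20 to 14.1 TPM in Hey. The epithelial keratins KRT8 and KRT18 were high in all libraries, but the epithelial markers EPCAM, at no more than 1.43 TPM, CDH1, at no more than 0.0283 TPM, and KRT19, at no more than 3.60 TPM, were low or absent in Hey. None of 9 leukocyte markers reached 1 TPM, and their summed level ranged from 0.210 to 1.51 TPM, with CD3E and MS4A1 at 0 throughout. The summed level of 3 fibroblast markers was 0.0400, 1.94 and 0.0398 TPM in Hey and 10.4, 9.87 and 10.9 TPM in SKOV3, in the order parental, PGCC, daughter. From SKOV3 parental to daughter cells, PDGFRB went from 0.280 to 5.35 TPM, LUM from 8.84 to 5.56 and DCN from 1.33 to 0.0292. Of the ovarian carcinoma markers, PAX8 was at 54.7 TPM or more in all libraries and WT1 ranged from 0.530 to 4.10 TPM. MUC16 was at 0.0322 TPM or less in Hey and at 1.15, 1.59 and 0.00564 TPM in SKOV3. MSLN was at 21.5, 23.3 and 0.386 TPM in Hey and at 33.1, 46.1 and 1.85 TPM in SKOV3. Of 2 endothelial markers, CDH5 was at 33.2 to 48.5 TPM in Hey while PECAM1 stayed under 1 TPM in all libraries. The mitochondrial share of TPM ranged from 2.64% to 14.8%. The bearing of these marker and mitochondrial levels on the values below was not tested, apart from a repeat without the mitochondrial genes.

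Among the ligands, TNFSF15 (TL1A), an inflammatory cytokine known for its action on lymphocytes and endothelial cells through TNFRSF25, was at 0.915 TPM in Hey parental cells, 74.9 TPM in Hey PGCCs and 0.739 TPM in Hey daughter cells. In SKOV3 it was listed at 0, 0 and 0.0310 TPM. Hey PGCCs were the only library with more than 1 TPM, and there TNFSF15 supplied 74.5% of the member ligands' TPM. CD70, at 20.6 TPM there, is not counted in that share. The ratio of PGCCs to parental cells was 81.8, a difference of 5.31 on the log2(TPM + 1) scale, which placed TNFSF15 at rank 11 from the top of the 31474 genes in that comparison. Its gene lies on the minus strand of chromosome 9, at 114784652 to 114806039 in GENCODE release 44 (hg38).

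TNFSF9 (4-1BB ligand), which costimulates T cells through TNFRSF9, was at 4.11, 11.9 and 4.93 TPM in Hey parental cells, PGCCs and daughter cells and at 23.3, 25.7 and 12 TPM in those of SKOV3. It was 2.89-fold higher in Hey PGCCs than in Hey parental cells, and higher in PGCCs than in daughter cells in both lines. TNF itself, the prototype cytokine of the family, was at 4.08, 6.84 and 3.43 TPM in Hey and at 31.5, 36.9 and 62.6 TPM in SKOV3. All 3 SKOV3 libraries were above all 3 Hey libraries for TNF and for TNFSF9. TNFSF10 (TRAIL), which can trigger apoptosis through the death receptors TNFRSF10A and TNFRSF10B, was at 0.159, 0.985 and 0.241 TPM in Hey and at 9.47, 4.92 and 4.76 TPM in SKOV3.

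The remaining member ligands were low. TNFSF12 (TWEAK), the ligand of TNFRSF12A, was at 2.19, 0.783 and 1.14 TPM in Hey and at 1.05, 2.38 and 2.23 TPM in SKOV3. TNFSF13 (APRIL), a B-cell factor, was at 2.12, 0.551 and 4.16 TPM in Hey and at 1.25, 0.503 and 0.202 TPM in SKOV3, so the PGCC library was the lowest in Hey but not in SKOV3. This value is uncertain, since TNFSF13 shares its locus with a read-through transcript, TNFSF12-TNFSF13, that was listed at 1.27 TPM in Hey PGCCs, at 0.400 TPM in SKOV3 PGCCs and at 0 in the other 4 libraries. TNFSF13B (BAFF), also a B-cell factor, was at 0.168, 1.38 and 0.111 TPM in Hey and at 0.0386, 0 and 0.391 TPM in SKOV3, with Hey PGCCs the only library over 1 TPM. LTB (lymphotoxin β), a ligand of LTBR, was listed at 0 in all 3 Hey libraries and at 0.204, 0.872 and 4.10 TPM in SKOV3. TNFSF4 (OX40 ligand) was at 0.972, 1.86 and 0.463 TPM in Hey and at 0.185, 0.221 and 0.617 TPM in SKOV3. FASLG, LTA, TNFSF8, TNFSF11, TNFSF14 and TNFSF18 stayed under 1 TPM in every library, the highest being TNFSF14 at 0.998 TPM in SKOV3 daughter cells.

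The promoters of TNFSF15 and TNFSF9 are shown because these were the member ligands above 10 TPM in Hey PGCCs, and both were called higher there. They run from 250 bases before to 50 bases after the RefSeq start (GRCh38.p14), 5′ to 3′ on the gene's strand. The TNFSF15 promoter is at chr9:114792481-114792780, minus strand, so this start lies inside the GENCODE gene, and the TNFSF9 promoter is at chr19:6530776-6531075, plus strand. Capitals mark the AP-1 motif TGANTCA in TNFSF15, 120 bases before the start, and the TATA motif TATAAA in TNFSF9, 30 bases before the start.
TNFSF15: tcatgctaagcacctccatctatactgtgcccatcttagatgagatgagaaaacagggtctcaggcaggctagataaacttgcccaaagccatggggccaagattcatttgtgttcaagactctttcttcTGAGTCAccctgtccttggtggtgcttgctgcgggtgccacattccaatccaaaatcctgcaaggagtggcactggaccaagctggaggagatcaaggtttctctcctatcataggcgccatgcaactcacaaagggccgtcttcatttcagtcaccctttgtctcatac
TNFSF9: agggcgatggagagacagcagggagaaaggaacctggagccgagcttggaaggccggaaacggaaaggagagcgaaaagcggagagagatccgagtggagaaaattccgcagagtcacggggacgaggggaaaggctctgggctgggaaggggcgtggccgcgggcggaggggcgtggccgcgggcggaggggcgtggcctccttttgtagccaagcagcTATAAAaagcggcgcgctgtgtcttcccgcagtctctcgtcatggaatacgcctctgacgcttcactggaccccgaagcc
RefSeq promoters were found for 27 of the 39 members, 36 promoters in all, and were searched on both strands. TGANTCA occurred in 16.7% of the 36 member promoters and in 7.71% of all 35116 promoters, and TATAAA in 16.7% and 11.5%. The NF-κB (κB) consensus occurred in 33.3% of member promoters and in 11.3% of all promoters. These are matches of letters, and members with several starts count more than once.

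Among the death-domain receptors, TNFRSF1A (TNF receptor 1), the main receptor of soluble TNF, was the most abundant except in SKOV3 daughter cells, at 228, 221 and 235 TPM in Hey and at 100, 146 and 69.6 TPM in SKOV3. Its levels in Hey lay close together, while SKOV3 PGCCs were 2.10-fold above SKOV3 daughter cells. FAS, the receptor of FAS ligand, was at 50.7, 99.1 and 70.0 TPM in Hey and at 9.52, 6.02 and 6.74 TPM in SKOV3. Its difference between Hey PGCCs and parental cells, 0.95 on the log2(TPM + 1) scale, stayed just under 2-fold, and its ligand FASLG was at 0.0280 TPM or less in all libraries.

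TNFRSF10B (DR5) was at 86.9, 110 and 75.0 TPM in Hey and at 27.4, 55.4 and 86.7 TPM in SKOV3. TNFRSF10A (DR4) was at 17.2, 20.5 and 18.7 TPM in Hey and at 5.61, 10.1 and 13.2 TPM in SKOV3. Both TRAIL death receptors had the order parental, PGCC, daughter from low to high in SKOV3 and were highest in PGCCs in Hey. TNFRSF21 (DR6) was at 14.8, 13.3 and 16.9 TPM in Hey and at 29.4, 55.8 and 28.0 TPM in SKOV3. TNFRSF25 (DR3), the receptor of TNFSF15, was at 1.63, 1.10 and 0.994 TPM in Hey and at 0.659, 2.07 and 1.27 TPM in SKOV3, so the library with 74.9 TPM of TNFSF15 held 1.10 TPM of its signalling receptor.

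Among the TRAF-binding receptors, TNFRSF12A (FN14), the receptor of TWEAK, was at 123, 127 and 113 TPM in Hey and at 115, 187 and 106 TPM in SKOV3. TNFRSF1A and TNFRSF12A together held between 33.4% and 54.4% of the members' TPM. LTBR (lymphotoxin β receptor), which activates the alternative NF-κB route, was at 92.6, 66.3 and 71.8 TPM in Hey and at 10.6, 33.5 and 2.17 TPM in SKOV3. SKOV3 PGCCs were 15.5-fold above SKOV3 daughter cells, and no SKOV3 library reached the lowest Hey library. Daughter cells, the SKOV3 library with the least LTBR, held the most LTB.

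CD40, a receptor best known from B cells and antigen-presenting cells, was at 21.3, 19.4 and 40.3 TPM in Hey and at 11.4, 9.72 and 51.1 TPM in SKOV3. It was lowest in PGCCs and highest in daughter cells in both lines. In Hey, PGCCs lay close to parental cells, with a difference of -0.13 on the log2(TPM + 1) scale. Without the mitochondrial genes that difference was 0.01, so PGCCs were then not the lowest in Hey. TNFRSF9 (4-1BB), an activation receptor of T cells, was at 0.581, 8.12 and 1.83 TPM in Hey and at 1.75, 1.59 and 13.6 TPM in SKOV3. PGCCs had the highest level in Hey and the lowest in SKOV3, where the daughter cells stood highest. TNFRSF14 (HVEM) was at 3.39, 5.02 and 5.35 TPM in Hey and at 0.209, 1.12 and 4.88 TPM in SKOV3, lowest in parental cells and highest in daughter cells of both lines.

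TNFRSF19 (TROY) was at 1.49, 2.38 and 1.94 TPM in Hey and at 1.92, 1.15 and 0.377 TPM in SKOV3. TNFRSF11A (RANK) was at 0.735, 0.970 and 0.542 TPM in Hey and at 3.07, 2.41 and 1.43 TPM in SKOV3, and its ligand TNFSF11 stayed at 0.0433 TPM or less. TNFRSF1B, TNFRSF4, TNFRSF8, TNFRSF13C, TNFRSF17 and TNFRSF18, most of them lymphocyte receptors, stayed under 1 TPM in every library, with TNFRSF1B highest at 0.702 TPM in SKOV3 daughter cells. TNFRSF13B was listed at 0 in all 6 libraries.

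The promoters of TNFRSF9, TNFRSF14 and LTBR are shown because TNFRSF9 and TNFRSF14 were both higher in SKOV3 daughter cells than in parental cells, while LTBR was lower there. Other members were also called in that comparison, and their promoters are not shown. The windows shown lie at chr1:7940790-7941089 on the minus strand, at chr1:2556121-2556420 on the plus strand and at chr12:6383912-6384211 on the plus strand (RefSeq, GRCh38.p14). As for TNFSF15, each of these starts lies inside the GENCODE gene. Capitals mark matches to the κB consensus, the first 74 bases before the start in TNFRSF9 and 86 bases before the start in TNFRSF14, and the AP-1 motif 44 bases before the start in TNFRSF9.
TNFRSF9: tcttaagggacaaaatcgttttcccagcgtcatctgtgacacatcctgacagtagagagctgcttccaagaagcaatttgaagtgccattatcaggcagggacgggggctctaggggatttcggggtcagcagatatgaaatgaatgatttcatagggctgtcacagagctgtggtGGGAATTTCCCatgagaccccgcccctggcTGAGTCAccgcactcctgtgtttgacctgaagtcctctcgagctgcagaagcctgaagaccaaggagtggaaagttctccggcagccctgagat
TNFRSF14: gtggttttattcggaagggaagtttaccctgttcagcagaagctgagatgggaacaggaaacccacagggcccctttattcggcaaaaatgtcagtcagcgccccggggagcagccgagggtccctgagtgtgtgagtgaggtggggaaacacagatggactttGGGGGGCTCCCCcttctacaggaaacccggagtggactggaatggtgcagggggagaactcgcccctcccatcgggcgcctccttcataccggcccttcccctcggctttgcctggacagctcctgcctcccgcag
LTBR: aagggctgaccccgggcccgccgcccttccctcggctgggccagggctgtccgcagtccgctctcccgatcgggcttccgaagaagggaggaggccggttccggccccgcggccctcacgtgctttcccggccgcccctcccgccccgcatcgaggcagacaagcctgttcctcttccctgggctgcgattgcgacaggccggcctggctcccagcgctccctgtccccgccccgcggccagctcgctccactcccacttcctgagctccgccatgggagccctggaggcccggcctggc
The marked κB stretches hold 2 overlapping matches in TNFRSF9 and 3 in TNFRSF14. The LTBR window held no match to any of the 3 motifs, and its GC content was 74.3% against 52.3% for TNFRSF9 and 60.3% for TNFRSF14. Of the other members called in that comparison, LTB, called higher, and TNFRSF19, called lower, also had a κB match. TNFRSF11B, CD40, TNFRSF10A and TNFRSF10B, called higher, were not among the members with a match, but not every member had a promoter. Whether κB matches go with the changes was not tested.

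Among the decoy and soluble receptors, TNFRSF6B (DcR3), a secreted decoy of FAS ligand, TL1A and LIGHT, was at 57.3, 71.9 and 58.9 TPM in Hey and listed at 0 in all 3 SKOV3 libraries. Its gene lies on the plus strand of chromosome 20 at 63696652 to 63698684, where it overlaps ARFRP1 on the opposite strand and starts 399 bases after the end of RTEL1. A read-through of both genes, RTEL1-TNFRSF6B, is annotated over it on the same strand and has no value in the table used here, so the TNFRSF6B level is uncertain in the same way as that of TNFSF13. In SKOV3, ARFRP1 was at 13.1 to 24.0 TPM and RTEL1 at 9.92 to 16.5 TPM. TNFRSF10D (DcR2), a decoy of TRAIL, was at 78.2, 120 and 136 TPM in Hey and at 22.6, 25.0 and 13.5 TPM in SKOV3. TNFRSF11B (osteoprotegerin), a soluble decoy of RANK ligand and TRAIL, was at 32.4, 55.1 and 57.5 TPM in Hey and at 1.81, 1.96 and 16.2 TPM in SKOV3. TNFRSF10C (DcR1) stayed at 0.968 TPM or less.

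The TRAIL receptors moved apart between the lines in the order parental, PGCC, daughter. The death receptors TNFRSF10A and TNFRSF10B together were at 104, 130 and 93.7 TPM in Hey and at 33.0, 65.5 and 99.9 TPM in SKOV3. The decoys TNFRSF10C and TNFRSF10D together were at 78.4, 121 and 136 TPM in Hey and at 22.9, 26.0 and 14.4 TPM in SKOV3. TNFRSF11B, which also binds TRAIL, is not counted with these decoys. It was at 32.4, 55.1 and 57.5 TPM in Hey and at 1.81, 1.96 and 16.2 TPM in SKOV3. The ratio of death receptor TPM to TNFRSF10C plus TNFRSF10D was 1.33, 1.08 and 0.690 in Hey and 1.44, 2.52 and 6.95 in SKOV3. Counting TNFRSF11B as a decoy would lower each of these ratios. By this ratio without TNFRSF11B, the parental libraries of both lines were similar. The daughter libraries had the lowest ratio of Hey and the highest of SKOV3. These ratios have no replicate error, and the difference between the lines was not tested.

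**Figure D2:**
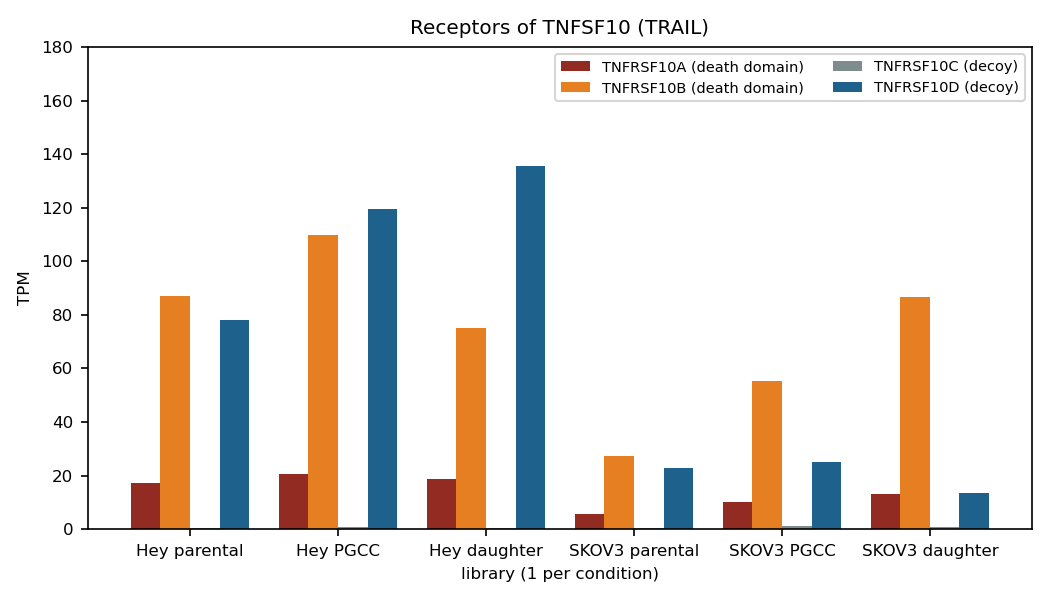
Bars give the TPM of 4 TRAIL receptors, without TNFRSF11B, in each of the 6 libraries (1 library per condition, no error). In Hey, TNFRSF10D reached 136 TPM in daughter cells and exceeded TNFRSF10B there, and in SKOV3 daughter cells TNFRSF10B was at 86.7 TPM against 13.5 TPM for TNFRSF10D.

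Which members differed between the states of a line was read from differences of log2(TPM + 1), and a member was called when it differed by 1 or more, that is 2-fold. For 1 library against 1 there is no test, so the number of members called is set beside the share of all genes called the same way. In Hey PGCCs against parental cells, 4 of the 38 members above 0 were called higher, where 4.83% of all 31474 genes were. These were TNFSF15 at 5.31, TNFRSF9 at 2.53, TNFSF9 at 1.33 and TNFSF13B at 1.03. TNFSF13 alone was called lower, at -1.01, where 2.63% of all genes were, and it was at -0.97 without the mitochondrial genes. Of the 22 members whose mean TPM was 1 or more, 3 were higher and 1 was lower, against 7.67% and 5.22% of all 14988 such genes. TNFSF15, counted among these 3, met the filter only through Hey PGCCs, being at 0.915 TPM or less in every other library. The median difference was 0.25 over the 38 members and 0.03 over all genes.

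In SKOV3 PGCCs against parental cells, only LTBR was called higher, at 1.57, and no member was called lower. The shares of all genes were 5.4% higher and 2.85% lower, or 9.94% and 4.96% among genes with a mean TPM of 1 or more, of which 1 of 22 members was higher. TNFRSF10B, at 0.99, stayed just under the threshold, and was at 1.01 with a pseudocount of 0.1. The difference of SKOV3 PGCCs from parental cells followed the GC content of the transcripts, with a Spearman correlation of 0.722 across 13348 genes against -0.0436 in Hey, which is a description over genes of the same libraries. The annotated LTBR transcript has a GC content of 61.6%, and once the trend with GC content and length had been subtracted its difference was 0.77 and it was no longer called. Under the same subtraction TNFRSF12A went from 0.69 to -0.16 and TNFRSF1A from 0.54 to -0.01. TNFRSF10B and TNFRSF21 stood at 0.91 and 0.75 there. The median difference was 0.04 over the 38 members and 0 over all genes.

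No member was called in either direction in Hey daughter cells against parental cells, where 3.7% of all genes were higher and 2.02% lower, and 6.31% and 3.73% of those with a mean TPM of 1 or more. The largest differences were 0.89 for CD40 and 0.84 for TNFRSF9. In SKOV3 daughter cells against parental cells, 7 of 38 members were called higher, where 9.57% of all genes were, and 2 were called lower, where 3.67% were. TNFRSF11B was higher by 2.61, TNFRSF9 by 2.41, TNFRSF14 by 2.28, LTB by 2.08, CD40 by 2.07, TNFRSF10B by 1.63 and TNFRSF10A by 1.11, 6 receptors and 1 ligand. TNFRSF10A was at 0.90 under median ratio scaling and at 0.89 with the GC and length trend removed. LTBR was lower, at -1.87, as was TNFRSF19, at -1.09. Of the 22 members whose mean TPM was 1 or more, 6 were higher and 2 lower, against 15.1% and 6.34% of such genes. TNF, at 0.97, stayed just under the threshold, and was at 1.06 without the mitochondrial genes. The median difference was 0 over the 38 members and 0.02 over all genes.

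**Figure D3:**
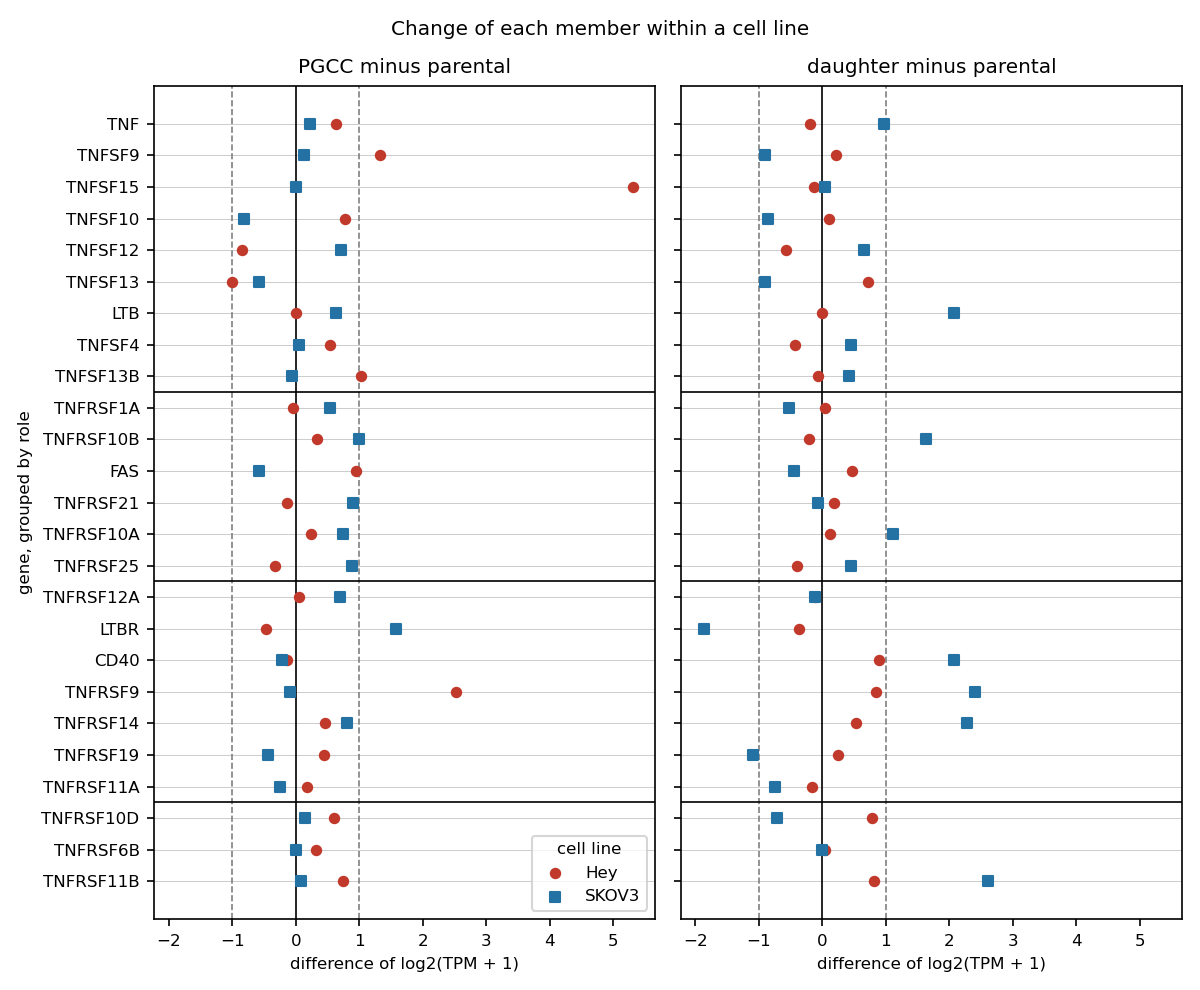
Difference of log2(TPM + 1) from the parental cells of the same line for PGCCs (left) and daughter cells (right), with 1 row per member, red circles for Hey and blue squares for SKOV3. Dashed lines mark a 2-fold change. TNFSF15 in Hey PGCCs, at 5.31, lies farthest from 0, and the SKOV3 daughter cells hold 9 points beyond the dashed lines where Hey daughter cells hold 0.

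The comparisons of PGCCs with daughter cells use libraries that also enter the comparisons above. In Hey PGCCs against daughter cells, 4 members were higher (4.97% of all genes), namely TNFSF15 at 5.45, TNFRSF9 at 1.69, TNFSF9 at 1.12 and TNFSF13B at 1.10. There, 2 were lower (5.18% of all genes), TNFSF13 at -1.74 and CD40 at -1.02. With a mean TPM of 1 or more, 3 of 22 were higher and 2 lower, against 8.13% and 9.95% of genes. The 3 include TNFSF15, which met that filter only through Hey PGCCs. CD40 stood between -0.95 and -1.06 over the settings tried. In SKOV3 PGCCs against daughter cells, 3 members were higher (5.23% of all genes), LTBR at 3.45, TNFRSF1A at 1.06 and TNFSF9 at 1.04. The last of these fell to 0.73 and TNFRSF1A to 0.76 after removal of the trend with GC content and length. Without the mitochondrial genes, TNFSF9 was at 0.93 and TNFRSF1A at 0.94. In the values as deposited, 5 were lower (9.01% of all genes), TNFRSF11B at -2.54, TNFRSF9 at -2.49, CD40 at -2.28, TNFRSF14 at -1.48 and LTB at -1.44. With a mean TPM of 1 or more, 3 of 22 were higher and 4 lower, against 9.25% and 14.6% of genes.

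No member was called the same way in both lines against the parental cells, in PGCCs or in daughter cells, where 0.454% of all genes were called higher and 0.404% lower in PGCCs of both, and 0.600% higher and 0.194% lower in daughter cells of both. Between PGCCs and daughter cells, TNFSF9 was called higher and CD40 lower in both lines, where 0.550% and 0.600% of all genes were. Neither shared call held under every setting. CD40 in Hey was at -0.98 under median ratio scaling, -0.95 without mitochondrial genes and -0.99 with the GC and length trend removed. TNFSF9 in SKOV3 was at 0.93 without mitochondrial genes and at 0.73 with that trend removed. TNFRSF9 went opposite ways, higher in Hey PGCCs and lower in SKOV3 PGCCs than in the daughter cells of the line.

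**Figure D4:**
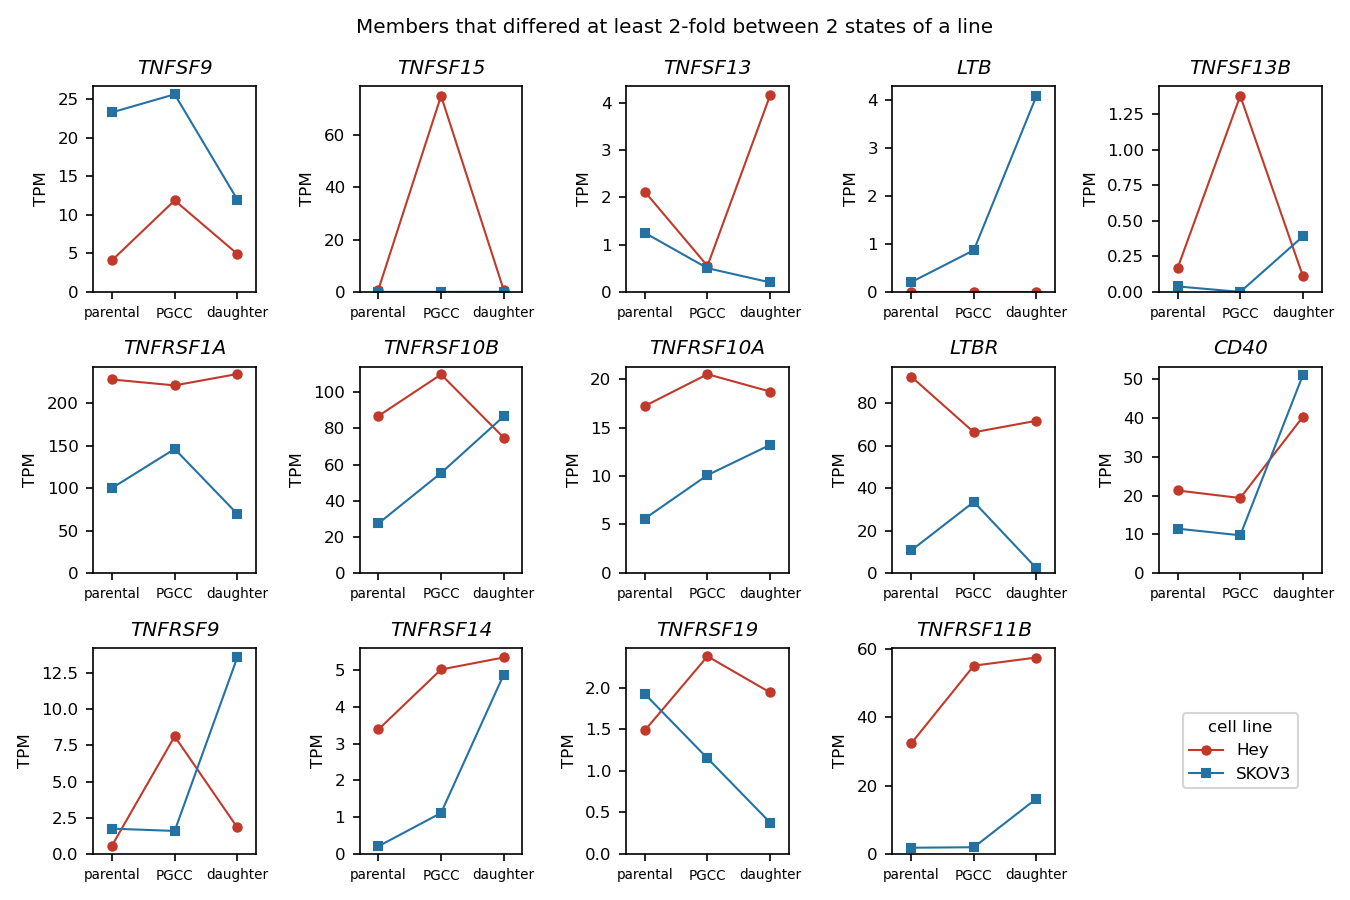
TPM in parental cells, PGCCs and daughter cells for the 14 members called in at least 1 comparison, with red circles for Hey and blue squares for SKOV3. Each point is 1 library, each panel has its own axis from 0, and lines only connect libraries of a line. CD40 is lowest in PGCCs in both lines, but close to parental cells in Hey. TNFRSF9 is highest in PGCCs in Hey and in daughter cells in SKOV3.

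Treating the 2 lines as repeats, limma with state and line as terms and 2 residual degrees of freedom was run on the 14988 genes with a mean TPM of 1 or more, 22 of them members. For PGCCs against parental cells, 0 of 22 members had an adjusted p under 0.05 and 0 had an unadjusted p under 0.05, where 0.02% of all genes passed by adjusted p and 2.73% by unadjusted p. For daughter cells against parental cells, 0 of 22 members passed by adjusted p, where 0.0133% of all genes did, and CD40, TNFRSF11B and TNFRSF14 had an unadjusted p under 0.05, as did 3.39% of all genes. For PGCCs against daughter cells, 0 of 22 members and 0% of all genes passed, and CD40 alone had an unadjusted p under 0.05, with a mean difference of -1.65 (SE 0.452) and a limma adjusted p of 0.908. The share of all genes with an unadjusted p under 0.05 was 5.06% there. The mean difference of TNFSF15 between PGCCs and parental cells was 2.65 (SE 1.26), the mean of a large difference in Hey and none in SKOV3. TNFSF15 was among the 22 only through its level in Hey PGCCs.

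Hey and SKOV3 were then compared over all states. With the 3 states as the repeats of a line, limma gave 9 of 22 members an adjusted p under 0.05, or 40.9%, where 20.6% of all genes passed, 940 of them higher and 2153 lower in Hey. The 6 members higher in Hey were all receptors, and the 3 higher in SKOV3 were all ligands. This split depends on the cutoff, since the receptor TNFRSF21 differed by -1.21 (SE 0.364, limma adjusted p = 0.0545). TNFRSF6B differed by 5.99 (SE 0.337, limma adjusted p = 0.000145), FAS by 3.11 (SE 0.380, adjusted p = 0.00217) and TNFRSF11B by 3.19 (SE 0.495, adjusted p = 0.0058). LTBR differed by 2.83 (SE 0.615, adjusted p = 0.0191), TNFRSF10D by 2.40 (SE 0.370, adjusted p = 0.00571) and TNFRSF1A by 1.17 (SE 0.328, adjusted p = 0.0442). In the other direction, TNF differed by -2.93 (SE 0.396, limma adjusted p = 0.00325), TNFSF10 by -2.32 (SE 0.467, adjusted p = 0.0147) and TNFSF9 by -1.48 (SE 0.376, adjusted p = 0.0327). TNFRSF12A, with a difference of -0.12 (SE 0.301), did not pass.

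These calls rest on few libraries. The PGCCs and daughter cells of a line derive from its parental cells, so the 3 libraries are not independent repeats of that line. The p-values treat them as independent. Left without SKOV3 PGCCs, only TNFRSF6B passed, where 1.14% of all genes did. Without Hey PGCCs 4 members and 4.41% of all genes passed, and without Hey parental cells 5 members and 8.31% did. When all 31474 genes above 0 entered, TNFRSF6B alone passed, where 1.05% of genes did. The median difference of all genes between the lines was -0.37 and became -0.06 under median ratio scaling, where the 9 members kept their sign and TNFSF9 no longer passed. Without a test, 8 of 22 members were higher in all 3 Hey libraries than in any SKOV3 library, where 12.8% of genes were, and 5 were higher in all 3 SKOV3 libraries, where 31.8% were. The 8 included the ligand TNFSF15, which met the mean TPM filter only through Hey PGCCs. The 5 included the receptors TNFRSF11A and TNFRSF21. FAS overlaps ACTA2 on the opposite strand, which was at 47.3 to 56.3 TPM in Hey and 1.02 to 1.38 TPM in SKOV3, and LTBR overlaps SCNN1A in the same way, at 1.29 to 4.61 TPM. Whether the counting used strand is not given in the sources used here, and the part of such overlap in the values was not tested.

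**Figure D5:**
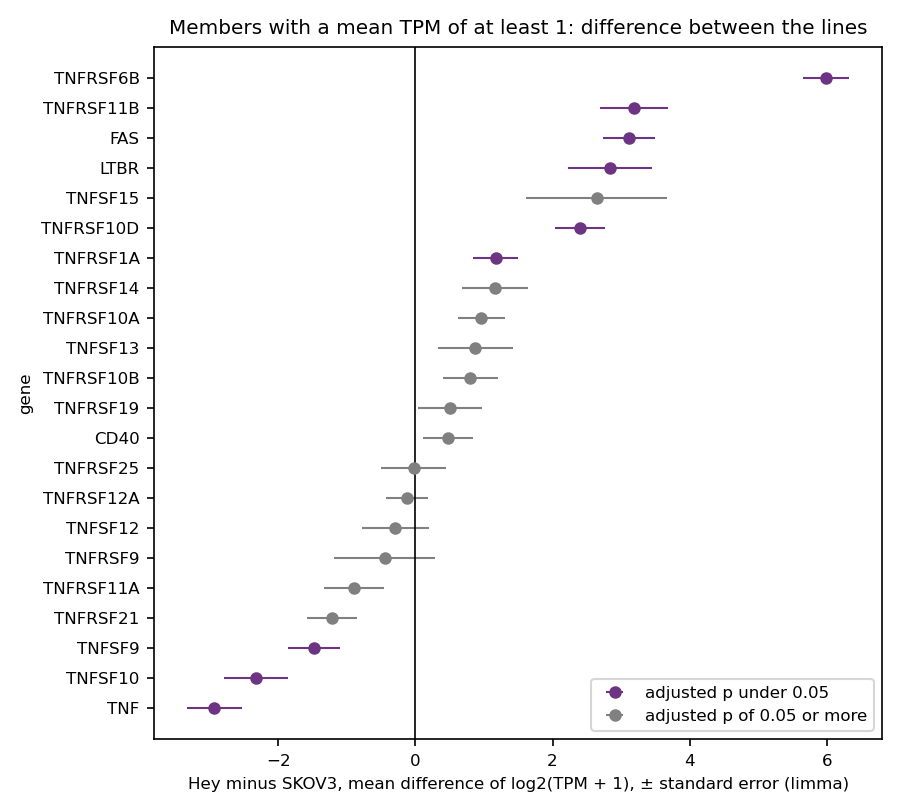
Mean difference of log2(TPM + 1) between Hey and SKOV3 for the 22 members with a mean TPM of 1 or more, from limma over 3 libraries per line, with bars of 1 standard error. Purple points have an adjusted p under 0.05. TNFRSF6B, at 5.99, lies at one end and TNF, at -2.93, at the other.

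Family members with other symbols were followed as a separate list of 8 genes, of which CD27 and CD40LG were listed at 0. CD70, the ligand of CD27, was at 19.2, 20.6 and 35.3 TPM in Hey and at 55.4, 121 and 28.1 TPM in SKOV3. It was called higher in SKOV3 PGCCs than in SKOV3 parental cells, at 1.11, a call lost when the GC and length trend was removed, at 0.38, and higher than in daughter cells, at 2.07. EDA2R, a receptor of ectodysplasin, was at 25.4, 38.9 and 26.5 TPM in Hey and at 0, 0 and 0.842 TPM in SKOV3. RELT, an orphan receptor, ranged from 2.86 to 6.63 TPM over the 6 libraries. EDA was above 1 TPM in Hey daughter cells alone, at 1.93 TPM, and EDAR in SKOV3 parental cells alone, at 1.48 TPM.

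The proteins that act next to these receptors were followed as a list of 37 genes, 36 of them above 0 and RIPK3, the kinase of necroptosis, listed at 0. In Hey PGCCs against parental cells, 6 of 36 were called higher and 0 lower, against 4.83% and 2.63% of all genes, or 7.67% and 5.22% of those with a mean TPM of 1 or more. TRAF1, an adaptor, went from 0.574 to 7.86 TPM, a difference of 2.49. TNFAIP3 (A20), an inhibitor of NF-κB signalling, went from 14.4 to 72.5 TPM, a difference of 2.26. BIRC3 (cIAP2), a ubiquitin ligase bound to TRAFs, went from 23.3 to 90.9 TPM, a difference of 1.92. CASP10, at 1.69, CFLAR (c-FLIP), an inhibitor of caspase-8 activation, at 1.03, and TNIP1, a partner of A20, at 1.01, were the others, and CFLAR was at 0.97 with the GC and length trend removed.

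In SKOV3 PGCCs, 7 of 36 of these genes were called higher and 0 lower against parental cells, namely SHARPIN, MAP3K14, TRAF4, TRAF2, TNIP2, TNIP1 and TAB1, with differences between 1.08 and 1.42. The shares of all genes were 5.4% and 2.85%, or 9.94% and 4.96% where the mean TPM was 1 or more. None of the 36 was called once the GC and length trend had been removed. TRAF1, TNFAIP3 and BIRC3 stood at 0.55, 0.12 and -0.81 in that comparison. In SKOV3 daughter cells against parental cells, 5 of 36 were higher and 0 lower, against 9.57% and 3.67% of all genes, or 15.1% and 6.34% where the mean TPM was 1 or more. BIRC3 went from 28.3 to 181 TPM, a difference of 2.64, and CFLAR was at 1.54. With the GC and length trend removed, 3 of the 5 were called, and RNF31 and TNIP1 no longer were. In Hey daughter cells only MAP3K14 (NIK) was called, higher at 1.68, where 3.7% of all genes were called higher. The list's median difference in PGCCs was 0.14 in Hey and 0.00 in SKOV3.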

How the data were processed

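RNA from Hey and SKOV3 parental cells, PGCCs and daughter cells was sequenced as 1 library each. Per the labels, the authors used fastp and Salmon 0.14.1 with hg38, and they deposited TPM per gene symbol. The annotation release, strand setting and bias options are not given in the sources used here. Column sums ranged from 911825 to 920497 TPM. The table holds no read counts, so the depth behind each gene is unknown, no counting error is given and count tests were not used. Library totals named in the study's methods were not used here.

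Differences of log2(TPM + 1) within a line were called at 1, with no test. A pseudocount of 1 understates changes of low genes. As a second approach, limma 3.58.1 (R 4.3.3) was fitted to the 14988 genes with a mean TPM of 1 or more, with state and line as terms, a trend of variance with intensity, and p-values adjusted by Benjamini-Hochberg. There are 2 residual degrees of freedom, and no interaction can be fitted. The residual spread is the disagreement between lines in the differences between states. Moderation over all genes adds 5.33 prior degrees of freedom to it. The p-values set a mean difference against this moderated spread. Alternatives were a pseudocount of 0.1, the mean TPM filter, median ratio scaling, mitochondrial genes left out, and removal of a GC and length trend (lowess, fraction 0.3, 2 passes, 13348 genes, GENCODE 44). The limma fit was also varied in pseudocount, filter, trend, scaling and terms. Leaving out each library was added after seeing the data.

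Members with at least 1 TPM in any library are named with all values, and the others by range. Of the listed genes with other symbols, those at 1 TPM or more are named, and of the signalling genes, those called in PGCCs. Of the signalling genes, those named beyond that rule were chosen after their values were seen. Another 3 hyphenated symbols were left out of the members. Members and lists were chosen with earlier results of these data known. Scripts, run in Python 3.11.15 with pandas 2.3.3, statsmodels 0.14.6 and matplotlib 3.10.9, were tested on simulated data. Another gene of the cell line check is not reported here.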

Additional observations from a re-analysis of the deposited data

Results flagged for a closer look

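TNFRSF9 differed between the lines in direction. Against the daughter cells of the same line, PGCCs were higher by 1.69 in Hey and lower in SKOV3, at -2.49, on the log2(TPM + 1) scale. The contrast between Hey and SKOV3 was not tested, as each state has 1 library per line.

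The read-through transcript TNFSF12-TNFSF13, which is outside the members, was listed at 1.27 TPM in Hey PGCCs and at 0.400 TPM in SKOV3 PGCCs and at 0 in both parental and both daughter libraries. At these levels TPM gives no error, and the read-through shares its sequence with TNFSF12 and TNFSF13.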

How the results depend on the processing

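Of 29 differences called at 2-fold, 23 were called in the same direction under every alternative that could be computed for them, and none turned direction. The GC and length trend was not subtracted from genes with a mean TPM under 1, over all libraries or over the 2 compared. In SKOV3 PGCCs against parental cells, TNFRSF14 and TNFSF13 kept their differences of 0.81 and -0.58 for this reason. The calls of LTB and TNFSF13B therefore could not change under that alternative. A pseudocount of 0.1 counted more low members. It gave 10 members higher and 2 lower in Hey PGCCs against parental cells, 7 and 2 in SKOV3 PGCCs, 3 higher in Hey daughter cells, and 15 higher and 5 lower in SKOV3 daughter cells. The shares of all 31474 genes called in the same way were 20.9% and 5.53%, 14.9% and 8.78%, 11.6%, and 21.7% and 9.42%. For PGCCs against daughter cells it gave 10 higher in Hey, and 5 higher and 11 lower in SKOV3, against 19.5%, and 12.6% and 19.8% of all genes. Without mitochondrial genes, 0 members were lower in Hey PGCCs against parental cells and 1 against daughter cells. With the GC and length trend removed, 0 were higher in SKOV3 PGCCs against parental cells, 4 were lower in SKOV3 daughter cells against parental cells and 1 was lower in Hey PGCCs against daughter cells. Median ratio scaling gave 4 and 1 for the last 2 of these. In the limma comparison of the lines, 1 member passed when all genes above 0 were tested, and between 1 and 12 passed when a library was left out. Of the 9 members called there, 1, TNFRSF6B, passed under every alternative. The cause of these shifts was not tested, apart from the filters and library removals, which by construction change the genes or libraries entering.

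Scaling moved the median of all genes with a mean TPM of 1 or more. In SKOV3 daughter cells against parental cells it was 0.15 as deposited, 0.23 without mitochondrial genes and -0.02 under median ratio scaling. In SKOV3 PGCCs against daughter cells it was -0.12, -0.22 and 0. In Hey it moved to 0.11 without mitochondrial genes, in PGCCs and in daughter cells against parental cells. The limma fit compares states within a line, and without the line term 0 of 22 members passed in each comparison of states.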
